A study of Mus musculus with 12 samples.

Results

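The genes described here encode 10 antimicrobial proteins of inflamed epithelium in mouse skin. They are S100a8 and S100a9, the subunits of calprotectin, the iron-binding or siderophore-binding proteins Lcn2 and Ltf, the protease inhibitor Slpi, the beta-defensins Defb3, Defb4 and Defb14, the lectin Reg3g and the acute-phase protein Saa3. They were picked by name and found in the count table by their Ensembl gene IDs. All 10 were among the 52636 genes listed and each had at least 1 count. A filter on low counts kept 17993 genes and 8 of the 10. Defb3 and Defb4 did not pass it, and the counts of Reg3g and Ltf were 5 or lower in every library without LL37, so these genes passed through the LL37-injected groups.

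RNA was sequenced from mouse skin in 4 groups of 3 libraries: control, control + RAPA, LL37 and LL37 + RAPA. All mice were BALB/c, a white inbred strain, female and 6 to 8 weeks old in the study's methods. LL37, the active peptide of human cathelicidin, or control vehicle was injected into the back skin 2 times a day for 2 days, which gives a rosacea-like inflammation within days and is a short-term model of the human disease. RAPA is rapamycin, an inhibitor of the growth-control kinase complex mTORC1, which the methods describe for BALB/c mice as intraperitoneal injection at 4 mg/kg per day. No engineered allele is named for any of the 4 groups. The comparisons ask what LL37 does to the skin, what rapamycin does to the response and what rapamycin does to skin without LL37.

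Antimicrobial proteins of skin are made by keratinocytes, by the cells of hair follicles and by leukocytes that enter the skin. Calprotectin binds zinc and manganese, lipocalin 2 binds bacterial siderophores and lactoferrin binds iron, so that all withhold metals from microbes, whereas beta-defensins disrupt microbial membranes. Calprotectin and lipocalin 2 are abundant in neutrophils and are also induced in stressed keratinocytes by cytokines such as IL-1, IL-17 and IL-36, and several of the genes are known targets of C/EBP, NF-kB or STAT3 transcription factors. In whole skin, more cells of a type and more RNA per cell cannot be told apart.

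Total counts per library ranged from 15734559 to 23271784. A count of 3, used as the detection floor, was 0.123 to 0.184 counts per 1000000 of the normalized library size (CPM). The basal and suprabasal keratinocyte list was high in every library, at 31288 to 48961 summed CPM over its 12 genes, as fits the label skin. Skeletal muscle genes differed widely between groups, at 54690 to 98333 summed CPM in the 6 libraries without LL37, 428 to 1747 in LL37 and 5255 to 10780 in LL37 + RAPA, and leaving the muscle list out of the fit changed none of the numbers of antimicrobial genes called. LL37 replicate 3 stood apart from the other LL37 libraries: on the first principal component, which held 68.3% of the variance, it scored 64.4 against 133 and 129, and the 10 genes together took 0.0344% of its counts against 0.225% and 0.274%. Control replicate 3 was high for several inflammatory genes, and values without each of these libraries are given beside the results they touch. Replicate libraries of a group differed far beyond sampling noise (mean chi-square per gene of 13.7 to 69.7), so each was counted as a separate sample.

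The genes lie in several clusters of the genome (GRCm38, GENCODE M21), and each is annotated as protein-coding. S100a8 (ENSMUSG00000056054, chr3:90668978-90670035, plus strand) and S100a9 (ENSMUSG00000056071, chr3:90692632-90695721, minus strand) are 22596 bases apart. Defb14 (ENSMUSG00000046354, chr8:19194357-19195212), Defb4 (ENSMUSG00000059230, chr8:19198706-19201545) and Defb3 (ENSMUSG00000039775, chr8:19293360-19295291) lie on the plus strand within 1 defensin cluster, with gaps of 3493 and 91814 bases. Lcn2 (ENSMUSG00000026822, chr2:32384633-32388252) and Slpi (ENSMUSG00000017002, chr2:164354070-164389095) are both on the minus strand of chromosome 2 but far apart. Ltf is ENSMUSG00000032496 (chr9:111019271-111042767, plus strand), Reg3g is ENSMUSG00000030017 (chr6:78466269-78468872, minus strand) and Saa3 is ENSMUSG00000040026 (chr7:46711998-46715700, minus strand). Of all 50-base stretches in their transcripts, 5.68% in Defb4 and 3.57% in Saa3 also occur exactly in annotated transcripts of other genes. None did in the other 8. Near matches and the genome outside annotated transcripts were not searched.

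Promoters of 8 of the 10 genes, from 250 bases before to 50 bases after the start in RefSeq (GRCm38.p6), were searched on both strands for letters that transcription factors of inflammation favour. The RefSeq starts differ from the ends of the GENCODE spans given above. The windows of Slpi and Lcn2 lie wholly inside those spans, which end upstream at chr2:164389095 and chr2:32388252. The C/EBP letters TTGCNNAA were present in 6 of the 8, against 10.8% of 32851 mouse promoters of the same length. A narrow 10-letter form of the NF-kB site was in 0 of the 8, against 1.63% of all promoters. Wider forms of the NF-kB site were not searched, so this 0 does not show that the promoters lack one. The letters TTCNNNGAA of STAT factors and TGANTCA of AP-1 were in 0 of the 8, against 8.30% and 7.81% of all promoters. The TATA box letters TATAAA were in 3 of the 8, against 13.6%. These matches are letters in a window and not measured binding. The 5 promoters below belong to the genes with the highest counts under LL37. Capitals mark the C/EBP letters in S100a9, Lcn2, Slpi and Saa3, which begin 236, 216, 241 and 99 bases before the start, and the TATA box letters in S100a8 and S100a9, which begin 30 bases before the start and at the start itself.
S100a8 (chr3:90668821-90669120, plus strand): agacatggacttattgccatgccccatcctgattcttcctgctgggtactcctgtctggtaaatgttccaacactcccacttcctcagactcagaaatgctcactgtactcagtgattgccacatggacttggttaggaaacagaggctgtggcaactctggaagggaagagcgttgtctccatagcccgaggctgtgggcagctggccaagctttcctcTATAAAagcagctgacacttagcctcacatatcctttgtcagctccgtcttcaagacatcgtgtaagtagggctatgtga
S100a9 (chr3:90695672-90695971, minus strand): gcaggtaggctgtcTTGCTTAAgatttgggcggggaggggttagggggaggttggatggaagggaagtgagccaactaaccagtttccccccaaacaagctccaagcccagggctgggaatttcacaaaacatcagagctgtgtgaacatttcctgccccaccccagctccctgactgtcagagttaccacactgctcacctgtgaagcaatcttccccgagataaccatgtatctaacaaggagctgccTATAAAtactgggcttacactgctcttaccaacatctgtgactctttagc
Lcn2 (chr2:32387690-32387989, minus strand): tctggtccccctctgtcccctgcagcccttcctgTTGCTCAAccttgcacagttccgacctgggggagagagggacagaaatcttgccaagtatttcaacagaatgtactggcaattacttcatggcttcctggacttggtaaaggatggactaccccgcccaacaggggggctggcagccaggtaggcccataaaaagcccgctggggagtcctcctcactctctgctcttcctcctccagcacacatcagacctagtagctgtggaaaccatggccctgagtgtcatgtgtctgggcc
Slpi (chr2:164356458-164356757, minus strand): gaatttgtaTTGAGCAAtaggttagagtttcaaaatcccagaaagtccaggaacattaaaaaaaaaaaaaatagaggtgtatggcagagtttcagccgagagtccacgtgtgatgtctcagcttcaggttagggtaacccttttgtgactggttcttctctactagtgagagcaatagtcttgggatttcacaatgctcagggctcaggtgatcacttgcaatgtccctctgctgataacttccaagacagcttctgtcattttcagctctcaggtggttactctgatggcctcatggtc
Saa3 (chr7:46715627-46715926, minus strand): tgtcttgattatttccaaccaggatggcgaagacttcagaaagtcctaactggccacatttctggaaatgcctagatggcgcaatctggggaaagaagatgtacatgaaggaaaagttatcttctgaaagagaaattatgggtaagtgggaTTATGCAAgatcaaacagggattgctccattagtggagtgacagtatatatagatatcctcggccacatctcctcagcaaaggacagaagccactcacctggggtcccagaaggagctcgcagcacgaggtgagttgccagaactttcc

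In control skin, per kilobase of exon, S100a9 had the highest mean at 22.4 ± 28.0 CPM per kb (SD, n = 3), followed by Defb14 at 15.9 ± 2.58, S100a8 at 14.1 ± 18.5, Lcn2 at 6.28 ± 1.32, Saa3 at 3.48 ± 1.74 and Slpi at 2.64 ± 1.64. The order of the first 3 is within their spread, since the calprotectin means rest on control replicate 3. In LL37 skin the order was S100a9 at 1251 ± 984 CPM per kb, S100a8 at 581 ± 462, Saa3 at 165 ± 114, Lcn2 at 71.9 ± 47.1, Slpi at 47.4 ± 26.4 and Defb14 at 29.7 ± 5.88. Neighbours in this order also lay within each other's spread. By these means Defb14 moved from among the highest per length in control skin to below calprotectin, Saa3, Lcn2 and Slpi in LL37 skin. The length counts every annotated exon base of a gene, 204 in Defb14, 2623 in Lcn2 and 2606 in Saa3, and the place of Defb14 depends on that choice. In plain CPM its control mean was 3.23, below Lcn2 at 16.5, S100a9 at 11.7, S100a8 at 9.76 and Saa3 at 9.08, and just above Slpi at 3.11. Per kb, Defb14 was below Lcn2 and Slpi in LL37 replicates 1 and 2. In LL37 replicate 3 it was above them, at 31.6 against 17.6 and 18.9 CPM per kb.

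Most of the measurable genes were higher in LL37 skin. With edgeR's quasi-likelihood test over all 17993 genes, 7 of the 8 tested antimicrobial genes were called higher in LL37 than in control skin (adjusted p under 0.05 and a log2 fold change above 1), where 8.73% of all tested genes were called higher. Their libraries did not overlap for 7 of the 8, against 23.8% of all genes. These counts include Reg3g and Ltf, which passed the filter through the LL37-injected groups and so had to be higher there. Of the 6 genes with at least 10 counts in every library 5 were called, all but Defb14, and their median log2 fold change was 4.76, against -0.0049 over all tested genes. Among the 7 genes called, the fitted rises ranged from 6.13-fold in Ltf to 55.8-fold in S100a9. Defb14 rose 1.87-fold.

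S100a9 had the highest mean CPM of the 10 genes in LL37 skin, at 653, followed by Saa3 at 430 and S100a8 at 403. In LL37 replicate 3 Saa3, at 99.9 CPM, was above both calprotectin genes. S100a8 was at 2.64, 2.10 and 24.5 CPM in control replicates 1, 2 and 3 and at 469, 686 and 55.4 CPM in the LL37 replicates. S100a9 was at 4.10, 2.46 and 28.6 CPM in control and at 767, 1100 and 91.9 CPM in LL37. Replicate 3 was the highest control library and the lowest LL37 library for both genes, and the groups still did not overlap. The log2 fold change was 5.37 ± 1.13 (SE, adjusted p = 0.00272) for S100a8 and 5.80 ± 1.17 (adjusted p = 0.00208) for S100a9. Without control replicate 3 these became 7.39 and 7.62, and without LL37 replicate 3 they became 5.92 and 6.35, all still called.

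Lcn2, which takes iron-loaded siderophores from bacteria, was at 16.3, 13.1 and 20.02 CPM in control and at 266, 254 and 46.1 CPM in LL37, a log2 fold change of 3.52 ± 0.64 (adjusted p = 0.00116). LL37 replicate 3 was again the lowest and lay above every control library. Ltf, the lactoferrin gene of neutrophil granules and glandular epithelium, was scarce, with 5, 1 and 1 counts in control and 13, 25 and 4 counts in LL37. Its groups overlapped, and its log2 fold change of 2.62 ± 0.88 (adjusted p = 0.0316) passed the test. The adjusted p of Ltf was 0.104 without control replicate 3 and 0.0584 without LL37 replicate 1, and the call was also lost without control replicate 2 or LL37 replicate 2.

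Slpi, an inhibitor of neutrophil elastase that also kills bacteria, was at 1.51, 2.56 and 5.27 CPM in control and at 61.8, 83.8 and 22.3 CPM in LL37. Every LL37 library exceeded every control library. The log2 fold change was 4.16 ± 0.61 (adjusted p = 0.000301). Saa3, a serum amyloid A protein made locally in inflamed tissue, was at 3.94, 10.9 and 12.4 CPM in control and at 676, 513 and 99.9 CPM in LL37. These groups did not overlap either, and the log2 fold change was 5.56 ± 0.74 (adjusted p = 0.000153), the smallest adjusted p among the 8.

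Reg3g, a lectin that binds the peptidoglycan of Gram-positive bacteria, was at or under the floor in control skin, with 1, 0 and 0 counts, and had 28, 16 and 11 counts in LL37. LL37 was therefore at least 6.38-fold higher, taking 3 counts in each control library, and the test over all genes gave an adjusted p of 0.000449. The defensins moved less. Defb14 was at 2.75, 3.79 and 3.16 CPM in control and at 7.02, 4.72 and 6.45 CPM in LL37, groups that did not overlap. Its log2 fold change of 0.91 ± 0.26 had an adjusted p of 0.0159 but stayed under the limit of 1 on the fold change, so Defb14 was not called. Without control replicate 2 or LL37 replicate 2 it was called, at 1.02 and 1.09.

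Defb3 had 0, 0 and 4 counts in control, 14, 0 and 3 in control + RAPA, 16, 4 and 9 in LL37 and 5, 4 and 6 in LL37 + RAPA. With no filter on low counts its log2 fold change in LL37 against control was 2.77 ± 1.10, with an adjusted p of 0.0829. A difference was not detectable at this depth. The libraries of these groups did not overlap in CPM, but only just, since control replicate 3 and LL37 replicate 2 had 4 counts each, at 0.211 and 0.245 CPM, and control + RAPA replicate 1 was above both. Leaving out a library let Defb3 pass the filter in several fits, and it was called against control without control + RAPA replicate 2 (adjusted p = 0.0464) and without control replicate 3 (adjusted p = 0.0400), where the remaining control libraries had 0 counts. Defb4 had 2 counts in LL37 replicate 3, 2 counts in LL37 + RAPA replicate 2 and 0 in the other 10 libraries, so it stayed under the floor in every group.

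**Figure D1:**
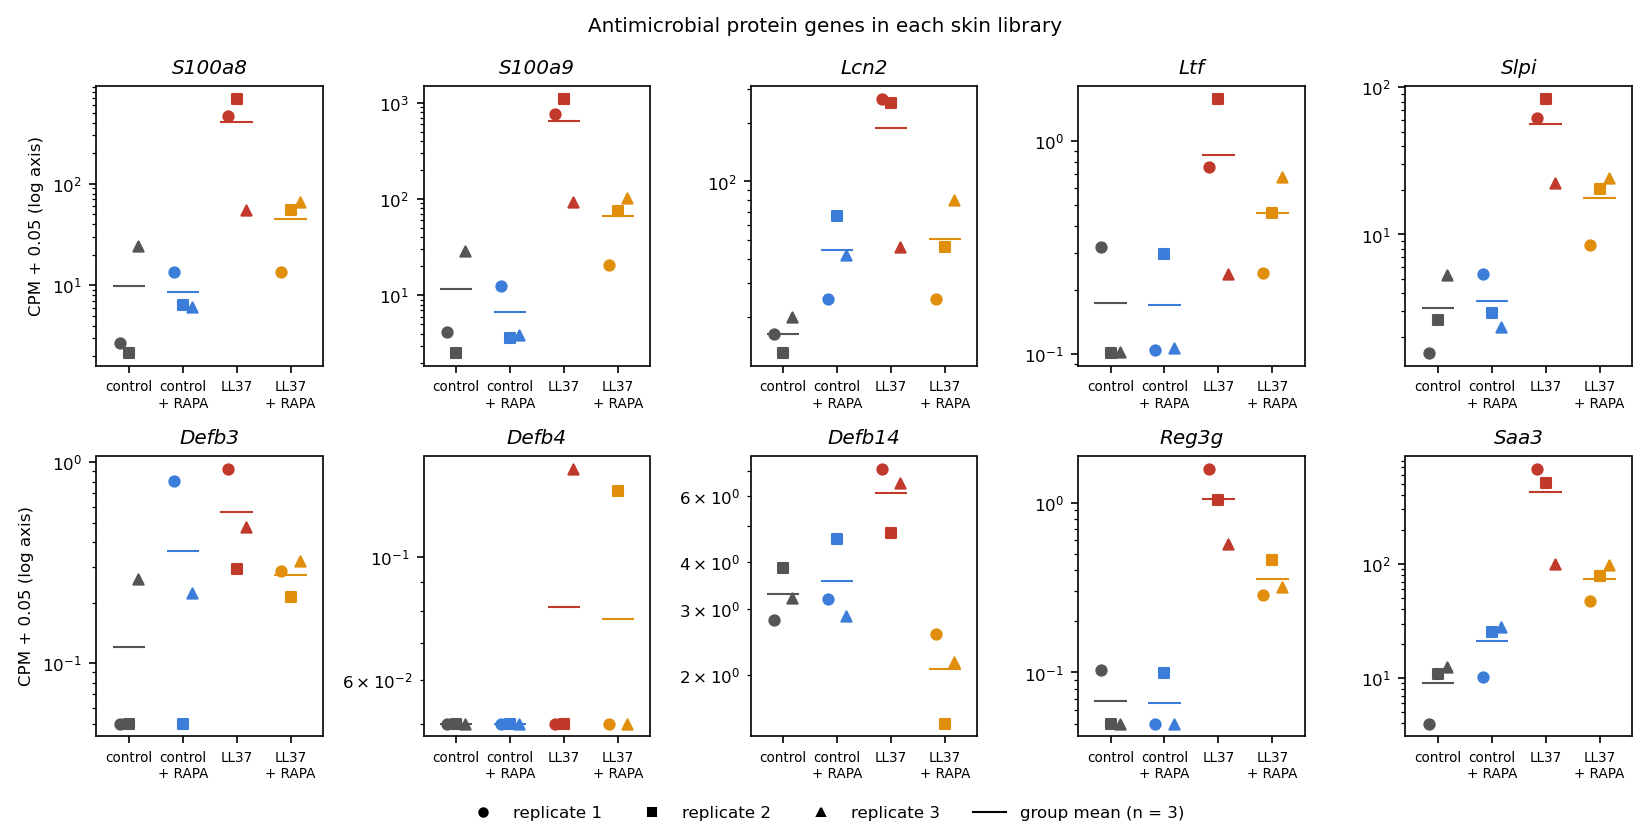
Each panel shows 1 gene, with the CPM plus 0.05 of each library on a log axis, the marker for the replicate number and a bar for the mean of 3 libraries. For S100a8, S100a9, Lcn2, Slpi, Saa3 and Reg3g the LL37 libraries lie above every control library, with replicate 3 the lowest of them, and Defb14 falls below control in LL37 + RAPA.

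Most of the tested genes were lower in skin given rapamycin with LL37 than with LL37 alone. In LL37 against LL37 + RAPA, 7 of the 8 tested genes were called higher in LL37, where 4.33% of all tested genes were, and Ltf was not called. Defb14, not called against control, was among the 7. The libraries did not overlap for only 3 of them, Defb14, Reg3g and Saa3, against 17.6% of all genes, and LL37 replicate 3 lay among or below the LL37 + RAPA libraries for the others. Reg3g passed the filter through the LL37-injected groups, and without Reg3g and Ltf 2 of 6 did not overlap. The median log2 fold change of the 6 genes with at least 10 counts in every library, all of them called, was 2.22, against -0.0042 over all tested genes. This comparison uses the same LL37 libraries as the previous one.

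In the LL37 + RAPA replicates, S100a8 was at 13.4, 54.9 and 65.5 CPM and S100a9 at 20.6, 75.6 and 102 CPM. LL37 replicate 3, with 55.4 and 91.9 CPM, was inside that range, and the other LL37 libraries were several times above it. The log2 fold change was 3.17 ± 1.00 (adjusted p = 0.0394) for S100a8 and 3.31 ± 1.03 (adjusted p = 0.0367) for S100a9. Lcn2 was at 24.7, 46.0 and 80.3 CPM in LL37 + RAPA (log2 fold change 1.91 ± 0.60, adjusted p = 0.0377), and Slpi was at 8.40, 20.3 and 24.2 CPM (1.66 ± 0.53, adjusted p = 0.0407). For both, LL37 replicate 3 overlapped the LL37 + RAPA libraries.

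Defb14 behaved differently from the rest. It was at 2.51, 1.43 and 2.12 CPM in LL37 + RAPA, under every library of the other 3 groups. The log2 fold change of LL37 over LL37 + RAPA was 1.59 ± 0.27 (adjusted p = 0.00298). Saa3 was at 47.3, 78.3 and 97.3 CPM, just under the 99.9 CPM of LL37 replicate 3 (2.53 ± 0.63, adjusted p = 0.0153), and Reg3g had 5, 10 and 6 counts (1.68 ± 0.53, adjusted p = 0.0387). Ltf, with 4, 10 and 14 counts, differed by 0.92 ± 0.72 (95% interval -0.65 to 2.50, adjusted p = 0.372).

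Most of these calls sat close to the threshold. Leaving out 1 library at a time gave between 1 and 7 called genes, with 1 called without LL37 replicate 1 or LL37 + RAPA replicate 1, 2 called without LL37 replicate 2, LL37 + RAPA replicate 2 or control + RAPA replicate 3, and 3 called without LL37 + RAPA replicate 3. A fit with only these 2 groups called 2 genes, Defb14 and Saa3. Defb14 was called under all 22 alternatives tried and Saa3 under 20 of 22, and without LL37 replicate 3, the low library, all 7 genes were again called, with S100a8 at 3.69 and S100a9 at 3.82 on the log2 scale.

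**Figure D2:**
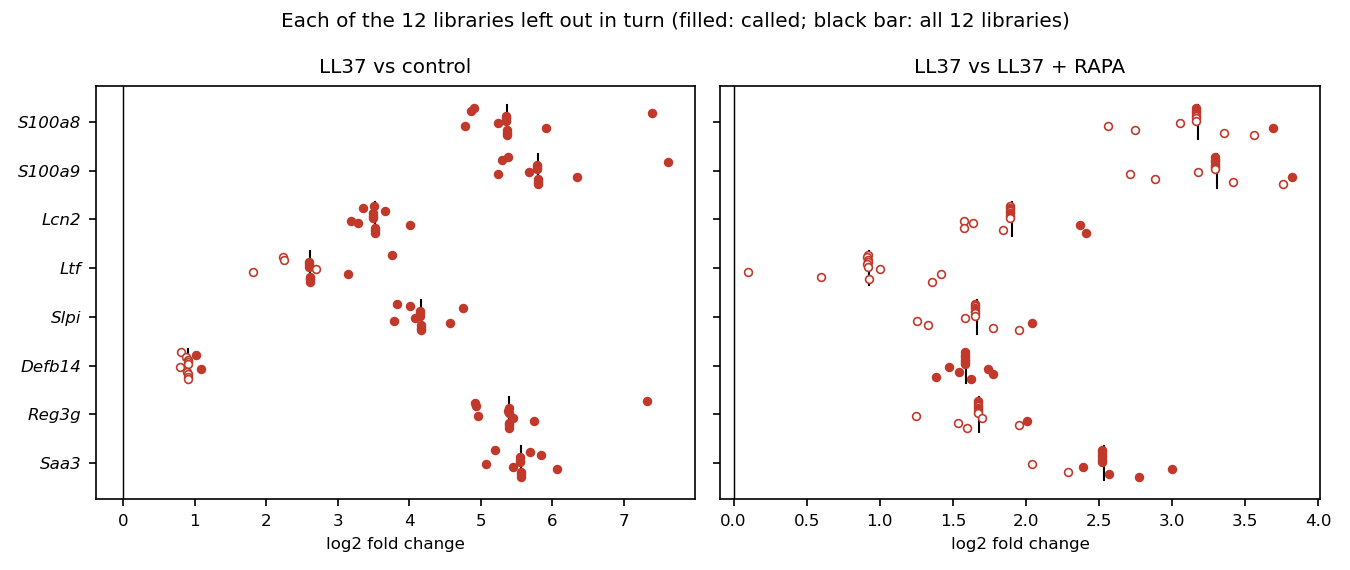
The log2 fold change of each tested gene when each of the 12 libraries is left out in turn, for LL37 against control and LL37 against LL37 + RAPA; filled points were called, open points were not, and the black bar is the value with all libraries. In LL37 against LL37 + RAPA every point lies above 0, but only Defb14 stayed filled throughout.

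Some of these genes stayed above control skin under rapamycin. In LL37 + RAPA against control, Slpi, Reg3g and Saa3 were called higher, 3 of the 8 tested genes, where 2.15% of all tested genes were called higher. Without Reg3g and Ltf these were 2 of 6. Slpi was higher by a log2 fold change of 2.50 ± 0.59 (adjusted p = 0.0148) and Saa3 by 3.03 ± 0.67 (adjusted p = 0.0105), and every LL37 + RAPA library lay above every control library for both. Reg3g was at least 1.94-fold higher against the floor (adjusted p = 0.0245). The libraries did not overlap, on the higher side, for 4 of the 8, against 16.9% of all genes, the fourth being Lcn2 with a log2 fold change of 1.61 ± 0.61 that did not pass the test (adjusted p = 0.105). Without Reg3g and Ltf these were 3 of 6.

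S100a8 and S100a9 were not called, with log2 fold changes of 2.19 ± 1.00 (adjusted p = 0.183) and 2.49 ± 1.02 (adjusted p = 0.137). These 2 values rested on control replicate 3, which was above LL37 + RAPA replicate 1 for both genes. Without that control library the log2 fold changes were 4.23 (adjusted p = 0.0372) and 4.32 (adjusted p = 0.0396), both called. Ltf was at 1.69 ± 0.92 (adjusted p = 0.271). Defb14 was lower in every LL37 + RAPA library than in every control library, as were 19.5% of all genes, with a log2 fold change of -0.68 ± 0.27 (adjusted p = 0.128).

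As a share of the LL37 change on the log2 scale, the change in LL37 + RAPA was 40.8% in S100a8, 43.0% in S100a9, 45.8% in Lcn2, 54.5% in Saa3, 60.0% in Slpi and 64.7% in Ltf. For Defb14 the share was -75.2%, because its level went under control. The shares are descriptions, since both changes use the same control libraries. A change made by rapamycin alone would count in them. Against control + RAPA, the log2 fold change in LL37 + RAPA was 0.18 in Lcn2, 1.81 in Saa3, 2.37 in S100a8, 3.31 in S100a9, 2.33 in Slpi and 1.69 in Ltf. Without control replicate 3, the changes of S100a8 and S100a9 against control were 7.39 and 7.62 in LL37. In LL37 + RAPA they were then 4.23 and 4.32. The number of genes called against control fell to 1 without control replicate 2, LL37 + RAPA replicate 2 or LL37 + RAPA replicate 3.

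Rapamycin without LL37 gave no call. In control + RAPA against control, 0 of the 8 genes and 0% of all tested genes were called by edgeR, while 1556 genes, or 8.65%, had an unadjusted p under 0.05, and DESeq2 called 53 genes and none of the 8. Lcn2 was the 1 gene of the 8 whose libraries did not overlap, as in 8.25% of all genes. It was at 24.7, 66.7 and 41.9 CPM in control + RAPA against 13.1 to 20.02 CPM in control, with a log2 fold change of 1.43 ± 0.60 (95% interval 0.11 to 2.75, adjusted p = 0.552).

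Saa3 was at 10.2, 25.2 and 28.2 CPM in control + RAPA, overlapping the control libraries (1.22 ± 0.65, adjusted p = 0.637). S100a8 was at 13.4, 6.32 and 6.10 CPM and S100a9 at 12.5, 3.56 and 3.86 CPM, inside the control range, with log2 fold changes of -0.18 (95% interval -2.41 to 2.05) and -0.82 (95% interval -3.10 to 1.47). The intervals are wide enough to hold a 4-fold change either way in S100a8. Slpi, at 5.31, 2.86 and 2.30 CPM (log2 fold change 0.17), and Defb14, at 3.14, 4.54 and 2.82 CPM (0.12), also overlapped control. Ltf had 1, 5 and 1 counts (0.01) and Reg3g 0, 1 and 0.

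Against control + RAPA, LL37 + RAPA was higher for Slpi (log2 fold change 2.33 ± 0.58, adjusted p = 0.016) and for Reg3g (at least 1.90-fold, adjusted p = 0.0204), 2 of the 8 genes, where 4.07% of all genes were called higher, or 1 of 6 without Reg3g and Ltf. S100a9, at 3.31 ± 1.07 (adjusted p = 0.0516), and Saa3, at 1.81 ± 0.63 (adjusted p = 0.0673), did not pass the test although their libraries did not overlap, which held for 4 of the 8 genes and 19.5% of all genes. Without Reg3g and Ltf it held for 3 of 6. For Lcn2 the difference was 0.18 ± 0.58 (95% interval -1.09 to 1.45, adjusted p = 0.877), with the level of both groups above control. S100a8 was at 2.37 ± 1.02 (adjusted p = 0.136), Ltf at 1.69 ± 0.92 (adjusted p = 0.248) and Defb14 at -0.80 ± 0.27 (adjusted p = 0.0629). Leaving out 1 library gave 0 to 4 calls, with 0 without LL37 + RAPA replicate 2 or control + RAPA replicate 3.

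**Figure D3:**
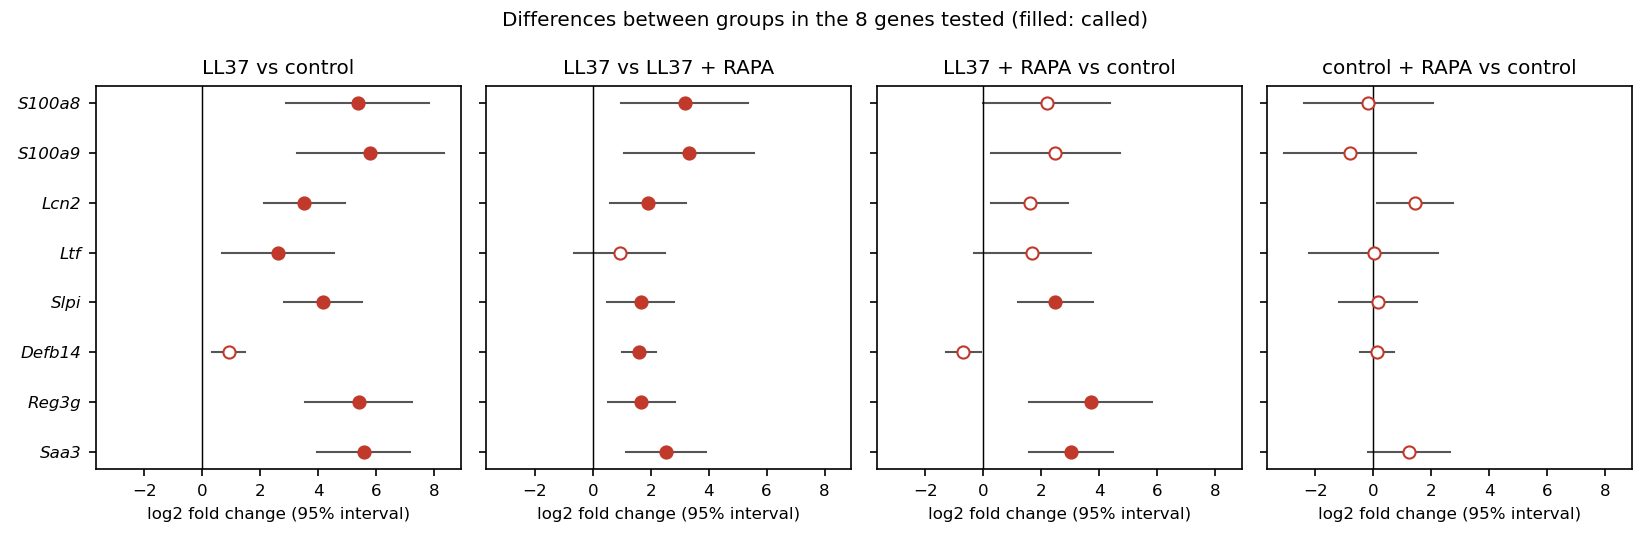
Log2 fold changes with 95% intervals for the 8 genes that passed the filter, in 4 comparisons; filled points were called. In LL37 against control all points but Defb14 are filled, in control + RAPA against control none is, and the Reg3g values against control are fitted values against a group at the floor (no value is drawn where both groups were there).

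Whether rapamycin acted differently in LL37 and in control skin was tested as an interaction. The interaction was below 0 for all 7 genes for which it could be read, Reg3g being at the floor in both groups without LL37. It was called for Defb14, at -1.71 ± 0.38 (adjusted p = 0.0378), and for Saa3, at -3.75 ± 0.90 (adjusted p = 0.0454), where 0.65% of all tested genes were called lower. Lcn2 was at -3.34 ± 0.85 (adjusted p = 0.0554), S100a8 at -3.00 ± 1.40 (adjusted p = 0.233), S100a9 at -2.49 ± 1.42 (adjusted p = 0.325), Slpi at -1.83 ± 0.81 (adjusted p = 0.209) and Ltf at -0.93 ± 1.38 (adjusted p = 0.733). Both calls were lost when any of 9 libraries was left out, and the number called ran from 0 to 4 when 1 library was left out, with 4 without LL37 replicate 3.

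The subunits of calprotectin form a dimer, and their transcripts kept a narrow ratio in LL37 skin. S100a9 counts per S100a8 count were 1.64, 1.60 and 1.66 in the LL37 replicates and 1.54, 1.38 and 1.55 in the LL37 + RAPA replicates. In control they were 1.55, 1.17 and 1.163, and in control + RAPA 0.931, 0.562 and 0.632, below every other library. Control replicates 1 and 2 had few counts, and their 95% intervals for counting error were 1.07 to 2.27 and 0.756 to 1.82. LL37 replicate 3 had the same ratio as the other LL37 libraries at an S100a9 level of 91.9 against 767 and 1100 CPM. A two-sided exact permutation test against control gave p = 0.1 for LL37, p = 0.1 for control + RAPA and p = 0.4 for LL37 + RAPA, and 0.1 is the smallest p that 3 libraries against 3 allow.

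**Figure D4:**
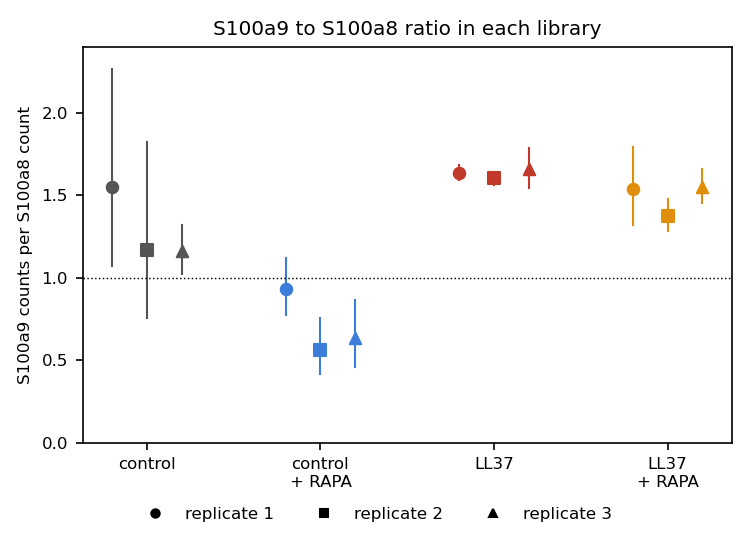
S100a9 counts per S100a8 count in each library, with 95% intervals for counting error only; the dotted line marks equal counts. The LL37 libraries lie between 1.60 and 1.66 and the control + RAPA libraries between 0.562 and 0.931.

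The genes varied together over the 12 libraries. Pearson's r of log2 CPM over the 28 pairs of the 8 tested genes ran from 0.143 to 0.988, with a median of 0.822, and over the 21 pairs without Defb14 from 0.777 to 0.988. Much of this is the shared difference between groups, and the values are a description. Among 12421 genes with a mean of at least 5 CPM, those whose pattern was most like the mean of the 8 were Mirt1 (mean r 0.860), Slc4a8 (0.858), Ier3 (0.856), Arid5a (0.856), Litaf (0.855) and Trpm2 (0.855).

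Other antimicrobial genes did not move as a block. Of 23 tested, 9 were called higher and 2 lower in LL37 against control, with a median log2 fold change of 0.36. Pglyrp3, a peptidoglycan-recognition protein, rose by 1.69 on the log2 scale (adjusted p = 5.4e-05), Nos2, the inducible nitric oxide synthase, by 4.51 (adjusted p = 0.000353), the chitinase-like Chil1 by 4.43 (adjusted p = 0.000583) and Wfdc12, a relative of Slpi, by 4.04 (adjusted p = 0.000816). All 4 were also called higher in LL37 than in LL37 + RAPA, at 1.27, 3.34, 4.32 and 4.64. The whole list had 6 genes called higher and 3 lower in that comparison. Its summed level was 1362 to 2413 CPM in LL37 and 2644 to 3744 CPM in LL37 + RAPA. In LL37 + RAPA against control none of the 4 was called, and the list had 3 genes called higher and 0 lower.

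Among genes looked at after their values were seen, Camp, the mouse cathelicidin gene, had 0 to 14 counts in every library, with 14, 9 and 0 in LL37 and 8, 11 and 0 in control. Saa1, the closest relative of Saa3 by name, had 2, 4 and 14 counts in control, 344, 374 and 38 in LL37 and 9, 19 and 39 in LL37 + RAPA. Of 11 other S100 genes tested, 0 were called higher and 2 lower in LL37 against control. These were S100a1 at -1.34 (adjusted p = 6.51e-06) and S100b at -1.54 (adjusted p = 0.0206), and no other S100 gene was called in LL37 against LL37 + RAPA.

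The cytokines known to induce these genes were called higher for 6 of 7 tested in LL37 against control and for 6 of 7 in LL37 against LL37 + RAPA. Il6 was higher than in control by 6.62 on the log2 scale (adjusted p = 0.000698), Osm by 4.32 (adjusted p = 0.00258), Il1a by 1.31 (adjusted p = 0.00221) and Il36g by 1.22 (adjusted p = 0.000286). In LL37 + RAPA against control 0 of the 7 were called. Il22 had 0 counts in all 12 libraries, Il17a 4 counts in 1 LL37 library and 0 elsewhere, and Il17f at most 3 counts, which lie at or about the floor.

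Among 12 receptor genes for these cytokines, 5 were called higher and 0 lower in LL37 against control, and 2 higher in LL37 + RAPA against control. Il17ra rose by 1.55 (adjusted p = 0.0012), Il1r1 by 1.48 (adjusted p = 0.00149), Osmr by 1.45 (adjusted p = 0.000647) and Il10rb by 1.13 (adjusted p = 0.000265), and none of the 12 was called in LL37 against LL37 + RAPA. Of 11 transcription factor genes, 5 were called higher in LL37 against control and 3 in LL37 against LL37 + RAPA. Hif1a rose by 2.04 (adjusted p = 0.000451), Stat3 by 1.44 (adjusted p = 0.000589), Fosl1, an AP-1 subunit, by 1.40 (adjusted p = 0.000193) and Nfkbiz, a cofactor of NF-kB, by 1.06 (adjusted p = 0.00072), whereas Cebpb, examined after its value was seen, was at 0.96 (adjusted p = 0.00774), under the fold limit.

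Receptors for the proteins themselves were called higher for 6 and lower for 1 of 13 genes in LL37 against control, and higher for 3 and lower for 1 in LL37 against LL37 + RAPA. Fpr1, a formyl peptide receptor, rose by 5.89 (adjusted p = 0.000805), Tlr2, the receptor of bacterial lipoproteins, by 2.92 (adjusted p = 0.000989) and Ly96, the partner of Tlr4, by 1.34 (adjusted p = 0.000662). Cd36, a scavenger receptor of fat cells and macrophages, fell by 1.80 (adjusted p = 0.000299).

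Markers of other cell types moved with the antimicrobial genes. The neutrophil list, which holds none of the 10 genes, summed over 18 genes to 30.8, 21.8 and 54.9 CPM in control, 29.7, 33.1 and 29.1 in control + RAPA, 959, 1138 and 175 in LL37 and 95.03, 331 and 274 in LL37 + RAPA. LL37 replicate 3 was again the lowest LL37 library and control replicate 3 the highest control library, but here control replicate 3 lay under every LL37 + RAPA library, whereas for calprotectin it lay above LL37 + RAPA replicate 1. Of 14 tested neutrophil genes 12 were called higher in LL37 against control, 6 in LL37 against LL37 + RAPA and 5 in LL37 + RAPA against control, with 1 lower in each of the first 2. Cxcr2 rose in LL37 against control by 5.69 (adjusted p = 0.000359), Csf3r by 4.74 (adjusted p = 0.000351), Mmp8 by 4.50 (adjusted p = 0.00061) and Padi4 by 2.25 (adjusted p = 0.000545). Ly6g, the marker that defines mouse neutrophils, had 0, 0 and 1 counts in control, 0 in each control + RAPA library, 25, 16 and 10 in LL37 and 3, 3 and 9 in LL37 + RAPA.

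The stress keratins Krt6a, Krt6b, Krt16 and Krt17, which keratinocytes make when wounded or inflamed, were also highest under LL37. Their summed level was 1343, 2029 and 2718 CPM in control, 2195, 2362 and 2168 in control + RAPA, 11428, 8720 and 6798 in LL37 and 2229, 2014 and 3156 in LL37 + RAPA. The LL37 libraries were the highest, replicate 3 included, and the LL37 + RAPA libraries lay near the groups without LL37. Krt6b, a small part of the sum in skin without LL37, was at 7.71, 11.3 and 341 CPM in control, so that control replicate 3 stood far above the other control libraries and above every LL37 + RAPA library, at 15.3, 59.3 and 149 CPM. Krt6b is the only 1 of the 4 given by library here. In the sum, control replicate 3 was above LL37 + RAPA replicates 1 and 2 and below LL37 + RAPA replicate 3. All 4 were called higher in LL37 against control, 3 in LL37 against LL37 + RAPA and 0 in LL37 + RAPA against control, with Krt16 at 4.46 (adjusted p = 0.00302), Krt6b at 3.85 (adjusted p = 0.0355), Krt6a at 2.15 (adjusted p = 0.00182) and Krt17 at 1.05 (adjusted p = 0.000747) in the first. The part of neutrophils and of stressed keratinocytes in the antimicrobial gene levels was not tested.

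**Figure D5:**
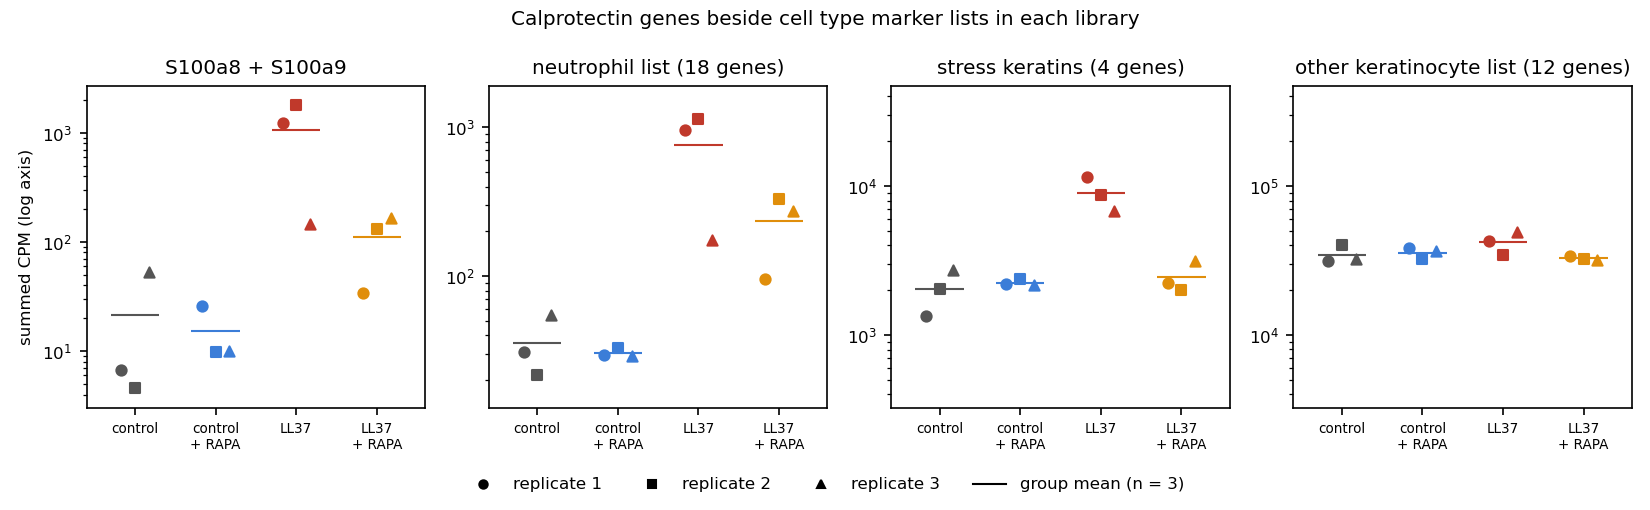
Summed CPM on a log axis for S100a8 and S100a9 together and for 3 marker lists, by library, with bars for the mean of 3 libraries. The calprotectin and neutrophil sums share the low LL37 replicate 3 and stay above most control values in LL37 + RAPA, the stress keratin sums are high only in the LL37 libraries, and the other keratinocyte sums stay between 31288 and 48961 CPM.

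Other cell type lists moved less or the opposite way in LL37 against control. Of 10 macrophage genes 5 were called higher and 0 lower, among them Itgam at 2.28, Mrc1 at 1.88 and Adgre1 at 1.54, and their summed level over the list was 554 to 999 CPM in control, 1733 to 1919 in LL37 and 1082 to 1565 in LL37 + RAPA. Of 12 basal and suprabasal keratinocyte genes 1 was called higher, Krt14 at 1.12, and 1 lower, Krt15 at -1.06. Of 8 adipocyte genes 0 were called higher and 6 lower, of 49 skeletal muscle genes 0 higher and 47 lower, and of 8 fibroblast genes 0 higher and 1 lower. The T cell list had 1 of 6 called higher, the hair follicle list 2 of 4 higher and 1 lower, and the mast cell list 0 of 8 in either direction.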

How the data were processed

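Each library was prepared from mouse skin and sequenced as paired-end reads (n = 3 per group). The authors deposited raw read counts per gene for 52636 Ensembl genes. The submitters' processing notes list HISAT2 2.0.5, StringTie 1.3.3b, featureCounts 1.5.0-p3, DESeq2 1.16.1 and the mm10 build, whereas the study's methods name HTSeq 0.6.0 for counting; which counter made the table, and whether strand was used, are not given in the sources used here. The labels give 3 samples per group, and p-values measure the spread between these samples.

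Gene symbols, positions and exon lengths were taken from GENCODE M21, which named 52403 of the genes; promoters were from RefSeq. CPM is counts per 1000000 of the effective library size, which is the total over the tested genes times the TMM factor. Level per kb divides it by the length of all annotated exon bases of the gene. Counts were filtered with filterByExpr (minimum count 10), TMM-normalized and fitted with edgeR 4.0.16 quasi-likelihood models (R 4.3.3) over all 12 libraries, with Benjamini-Hochberg adjustment over 17993 genes. A gene counted as called when its adjusted p lay under 0.05 and it changed by more than 1 on the log2 scale. The scripts were tested on simulated data. Intervals on count ratios cover counting error only. A count of 3 per library was the floor.

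The 10 genes and the gene lists were chosen with earlier results of these data known. From each list up to 4 called genes with the smallest p in LL37 against control were named, except for 1 gene that is not reported here, and the 6 genes most like the 8 tested were ranked by mean correlation. Il36a and Krt85 could not be matched to a gene of the table, and no promoter was printed for Defb4 and Defb14. Alternatives were DESeq2 size factors, library size only, no muscle genes, other filters, the DESeq2 1.42.0 Wald test, no fold limit, only the groups compared, a replicate block, and each library left out.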

Additional observations from a re-analysis of the deposited data

Results flagged for a closer look

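A difference in the effect of rapamycin between LL37 skin and control skin was called for 2 of the tested antimicrobial genes, where 0.65% of all tested genes were called lower. Neither call was stable. For Defb14 the difference in effect was -1.71 on the log2 scale (SE 0.38, 95% interval -2.53 to -0.88, adjusted p = 0.0378 with edgeR's test over all genes): rapamycin lowered Defb14 from 6.06 ± 1.199 to 2.02 ± 0.55 CPM (SD, n = 3) in LL37 skin, whereas the means were 3.23 ± 0.53 CPM in control and 3.50 ± 0.92 CPM in control + RAPA. For Saa3 the difference was -3.75 (SE 0.90, 95% interval -5.72 to -1.79, adjusted p = 0.0454), with means of 430 ± 297 CPM in LL37, 74.3 ± 25.2 in LL37 + RAPA, 9.08 ± 4.52 in control and 21.2 ± 9.66 in control + RAPA. Leaving out any 1 library gave -1.89 to -1.46 for Defb14 and -4.22 to -3.27 for Saa3. The adjusted p lay between 0.0175 and 0.0973 for Defb14 and between 0.00121 and 0.122 for Saa3. Of 21 alternatives tried, the call was lost in 10 for Defb14 and in 12 for Saa3.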

How the results depend on the processing

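Of 987 recalculated values of single genes, 835 kept direction and side of the threshold, 92 lost a call, 38 gained one and 22 changed sign. In LL37 against control 6 to 8 genes were called when 1 library was left out, where Defb3 often passed the filter and made up the 8. In LL37 against LL37 + RAPA the range was 1 to 7, with 2 in a fit of only the groups compared. It was 1 to 4 in LL37 + RAPA against control, 0 in control + RAPA against control, 0 to 4 in LL37 + RAPA against control + RAPA (4 with library size only, with no filter, with DESeq2 and with only the groups compared) and 0 to 4 for the interaction. Leaving out LL37 replicate 3 and control replicate 3 together, chosen after seeing the data, gave 5, 5 and 6 called in LL37 + RAPA against control, in LL37 + RAPA against control + RAPA and for the interaction. Replicate numbers did not pair the samples: deviations of same-numbered libraries correlated at -0.188 to 0.263 over 18 pairs, with 4 above 0.1. With the number as a replicate block 3 genes were called in LL37 against LL37 + RAPA and 0 for the interaction, and S100a8 in control + RAPA against control was 0.12. Signs changed mostly in control + RAPA against control, where differences were small. Leaving out 1 library gave -0.68 to 1.85 for S100a8, -1.68 to 1.01 for S100a9, -0.29 to 0.76 for Slpi, -0.12 to 0.23 for Defb14 and -1.06 to 1.15 for Ltf there. It gave -0.33 to 0.60 for Lcn2 in LL37 + RAPA against control + RAPA and -2.06 to 0.15 for the interaction of Ltf. Without both libraries S100a8, S100a9 and Ltf in control + RAPA against control were 1.86, 1.02 and -0.34. Ltf there was also -0.00788 with DESeq2 size factors, -0.0449 with library size only, -0.0170 without muscle genes, -0.0241 with no filter and -0.0904 with the replicate block. The causes were not tested. Depth limited Ltf, Reg3g, Defb3 and Defb4, whose counts stayed at 28 or lower.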
